A study of Mus musculus with 67 samples.

Results

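The genes of the embryonic basement membrane were followed in mouse embryos between the 2-cell and the blastocyst stages, with and without a light exposure at the 2-cell stage. They were the 10 rows of the deposited expression table, of 26414 genes in all, whose symbol is Lama1, Lama5, Lamb1, Lamc1, Col4a1, Col4a2, Nid1, Nid2, Sparc or Dag1. The set was put together with the results of these libraries known, because Lamb1 and Lama5 were lower in light blastocysts than in control blastocysts. The blastocyst values are therefore given as a description without a test, and tests are given for the earlier stages only.

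The libraries were made by SMART-seq2 from C57BL/6 embryos, 34 in the light group and 33 in the control group. Light embryos received 5000 lx for 6 h as 2-cell embryos and were then cultured in the dark, whereas control embryos stayed in the dark. Each library was made from a single cell, picked by hand after the embryo had been dissociated with trypsin, as the study's methods describe. In developmental order from 2-cell embryos to blastocysts, the 5 stages had 7, 6, 4, 13 and 3 control libraries and 6, 8, 8, 6 and 6 light libraries. The labels number an embryo for each library and name no litter, culture or day. Each library was taken as a replicate, so the p-values measure the spread between these libraries only.

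The basement membrane is a thin sheet of matrix under epithelia. Its first layer is a network of laminins, each a trimer of an alpha, a beta and a gamma chain, and in the early embryo the main trimers join the alpha chain of Lama1 or Lama5 to the chains of Lamb1 and Lamc1. Col4a1 and Col4a2 encode the chains of the main collagen IV trimer, the nidogens Nid1 and Nid2 bind laminin and collagen IV, the secreted glycoprotein Sparc binds collagens, and Dag1 encodes dystroglycan, a laminin receptor at the cell surface. In the blastocyst, primitive endoderm and trophectoderm cells lay down such a matrix, and the parietal endoderm formed later is a rich source of it.

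By the GENCODE M21 annotation of GRCm38, the laminin chain genes lie on different chromosomes. Lama1 is on chromosome 17 (67697259 to 67822647, + strand), Lama5 on chromosome 2 (180176373 to 180225859, - strand), Lamb1 on chromosome 12 (31265234 to 31329644, + strand) and Lamc1 on chromosome 1 (153218922 to 153332786, - strand). Col4a1 (11198423 to 11312826, - strand) and Col4a2 (11312805 to 11449287, + strand) lie head to head on chromosome 8, with start sites 21 bases apart and 22 shared bases. Nid1 is on chromosome 13 (13437551 to 13512269, + strand), Nid2 on chromosome 14 (19751265 to 19811787, + strand), Sparc on chromosome 11 (55394500 to 55423183, - strand) and Dag1 on chromosome 9 (108204634 to 108263958, - strand). Nid2 overlaps Rtraf on the other strand, and SMART-seq2 does not mark the strand, so reads in that overlap cannot be assigned to either gene.

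The bases before the start of Lama5, Lamb1 and Nid1 are shown because Lama5 and Lamb1 were named for the blastocyst difference and because Lama5 and Nid1 differed between light and control at an earlier stage. They come from the RefSeq promoter table of GRCm38.p6, which held an entry for 7 of the 10 members, and they stop at the first base of an annotated exon. Capitals mark CCAAT and GGGCGG on either strand (ATTGG and CCGCCC are the same letters read from the other strand), and TATAAA and AGATAA were also searched on both strands.
Lama5 (chr2:180225860-180226109, - strand): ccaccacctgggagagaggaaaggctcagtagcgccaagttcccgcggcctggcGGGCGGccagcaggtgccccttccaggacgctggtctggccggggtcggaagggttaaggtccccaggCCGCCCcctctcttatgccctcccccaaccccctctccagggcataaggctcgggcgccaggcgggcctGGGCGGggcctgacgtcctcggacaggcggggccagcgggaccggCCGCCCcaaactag
Lamb1 (chr12:31265043-31265233, + strand): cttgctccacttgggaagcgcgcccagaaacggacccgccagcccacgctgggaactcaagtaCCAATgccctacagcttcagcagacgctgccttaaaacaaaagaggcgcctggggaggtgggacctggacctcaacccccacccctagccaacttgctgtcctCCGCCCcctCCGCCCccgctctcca
Nid1 (chr13:13437352-13437550, + strand): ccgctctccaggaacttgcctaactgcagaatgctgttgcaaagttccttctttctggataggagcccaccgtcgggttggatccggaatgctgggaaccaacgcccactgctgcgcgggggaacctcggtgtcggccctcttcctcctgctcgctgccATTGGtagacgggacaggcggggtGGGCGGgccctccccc

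Lama5 held GGGCGG at 4 places and no CCAAT. Lamb1 held 1 CCAAT and 2 GGGCGG, and Nid1 held 1 of each. None of the 3 stretches held TATAAA or AGATAA in these windows. Of all 32851 windows of 250 bases in the table, 33.85% held CCAAT, 32.74% held GGGCGG, 12.37% held TATAAA and 9.988% held AGATAA. The windows of 250 bases had a GC content of 72.4% for Lama5, 62% for Lamb1 and 64.4% for Nid1, against a median of 52.4%. A match is given as a description of the letters only.

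The values are normalised read counts, in which the authors scaled the reads on a gene by 1 size factor per library and did not correct for gene length. Total reads per library lay between 836011 and 8551674, and 54.0% to 89.3% of them were on CT010467.1, annotated as ribosomal RNA, and Gm42418, so that 318177 to 2867034 reads were left for all other genes. A value of 0.266 to 3.89 stands for 1 read, depending on the library, and intervals and floors cover counting error only because the reads carry no molecular identifiers. The ratio of Gm42418 to CT010467.1 separated the groups at 3 stages, with 2.34 to 4.03 in control against 1.58 to 1.77 in light 2-cell libraries, 2.01 to 2.34 against 1.52 to 1.71 at the 8-cell stage, and 2.34 to 4.14 against 1.49 to 1.67 in morulae, so that preparation and light cannot be told apart there. Y-linked reads reached 10 CPM, over the other reads, in 0 of 4, 0 of 13 and 0 of 3 control libraries at the 8-cell, morula and blastocyst stages, and in 3 of 8, 1 of 6 and 6 of 6 light libraries. Whether several libraries of a group came from the same embryo is not known, and if they did the p-values are too small. Control 4-cell library 3 correlated more with the light libraries of its stage (median r 0.844) than with the other control libraries (median r 0.788). Libraries 2, 4 and 6 did so by smaller gaps (0.737 against 0.732, 0.791 against 0.788 and 0.793 against 0.791). Because of the larger gap, the 4-cell results are also given without library 3. Its ratio of Gm42418 to CT010467.1 (1.61) lay inside the light 4-cell range of 1.43 to 1.63, and the other control 4-cell libraries were at 1.80 to 4.55. Without that library, preparation and light cannot be told apart at the 4-cell stage either. The summed values of the cumulus cell markers (6 of 9 in the table) were at most 0.368 in blastocysts and at most 6.37 in morulae, and those of the fibroblast markers (4 of 7 in the table) at most 2.10 and 9.41. At the 2-cell stage they reached 54.6 and 43.4 in light and 6.90 and 31.0 in control libraries.

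The members did not follow a common course over the stages, and each of them had its own order of levels. Lamb1 and Dag1 were present in every library at every stage. Lama5 had its highest mean, 665 ± 346 (SD, n = 3), in control blastocysts, followed by light morulae at 317 ± 185 (SD, n = 6) and control morulae at 237 ± 181 (SD, n = 13), and these last 2 means differed by less than their SD. Lamb1 was also highest in control blastocysts, at 241 ± 84.7 (SD, n = 3), and then in control 2-cell libraries, at 170 ± 112 (SD, n = 7), and its mean in light blastocysts, 9.86 ± 5.51 (SD, n = 6), was the lowest of the 10 groups. In the order of the 10 Lamb1 means, no neighbours differed by more than the larger of their SDs, and their ranges overlapped throughout. For Nid1, control blastocysts at 313 ± 109 (SD, n = 3) stood above control morulae at 102 ± 71.2 (SD, n = 13) by more than the larger SD. Sparc was near the floor of 3 reads in most libraries before the blastocyst, with 0 reads in all 6 control 4-cell libraries and in 12 of 13 control morulae. In light libraries before the blastocyst it reached 10.0 (6 reads), inside the light blastocyst range of 1.05 to 62.0.

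**Figure D1:**
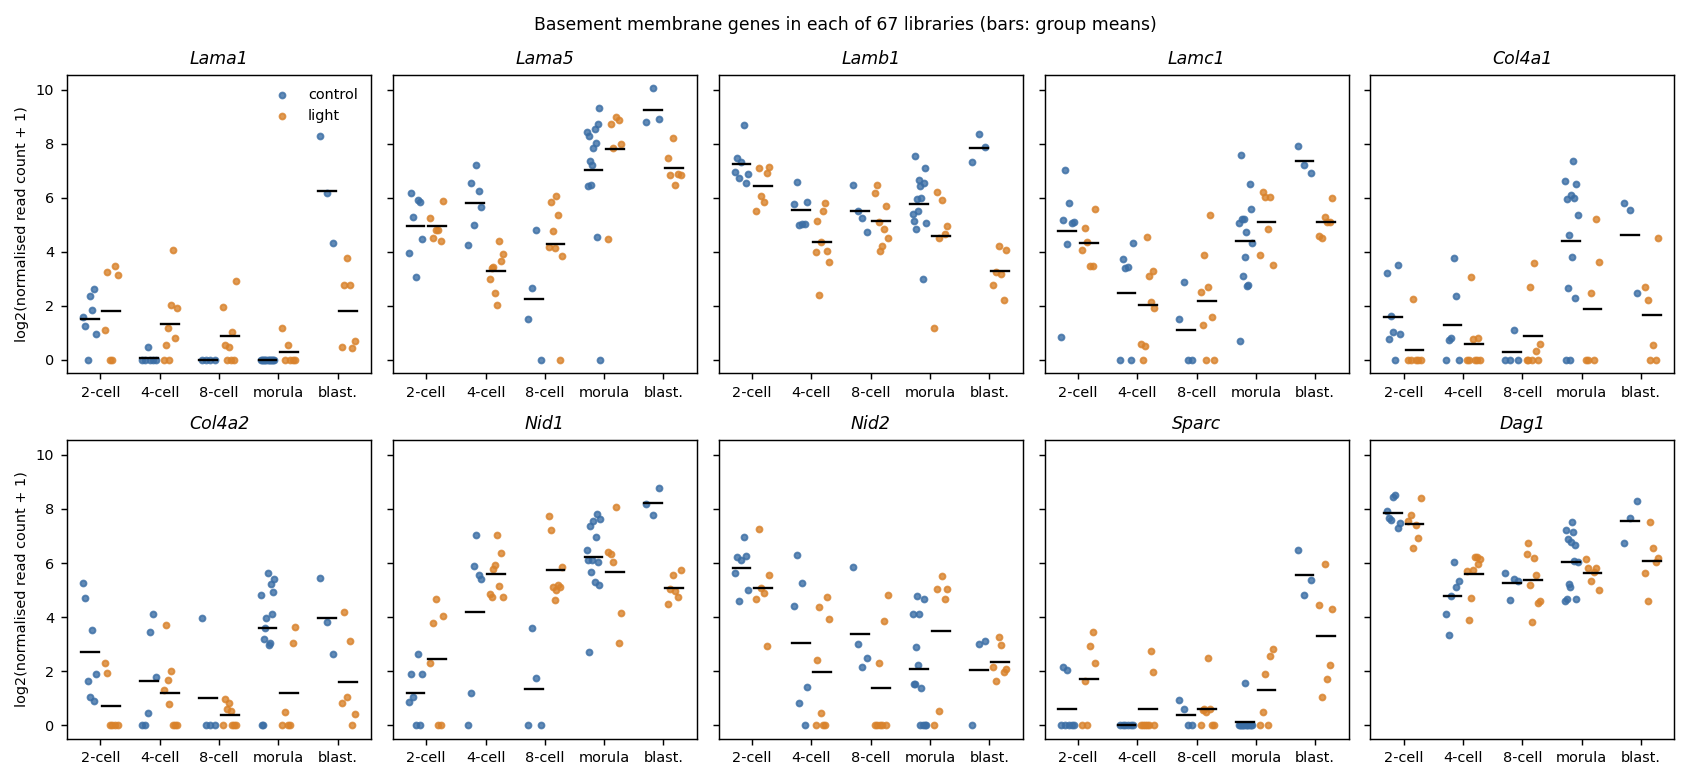
Normalised read count of each of the 10 members in each of 67 libraries, on the log2(value + 1) scale, by stage; points are libraries, bars are group means, blue is control and orange is light. Lamb1 and Dag1 are above 0 in every library, and Sparc is at a value of at most 10.0 before the blastocyst. The light 8-cell libraries of Nid1 lie above all 4 control libraries.

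The steps from stage to stage were compared in each condition. From the 2-cell to the 4-cell stage, Dag1 and Lamb1 fell and Nid1 rose in the 2 conditions, and Nid2 and Lamc1 had lower means with calls that depended on the tool. In control libraries 6 of 9 members tested passed the test (limma on log2(value + 1), adjusted p under 0.05 over all genes tested and a fold change of at least 2), where 46.1% of all genes did, and in light libraries 6 of 9 passed, where 36.5% of all genes did. With edgeR and with DESeq2, 4 members passed in each condition. Over all genes, 8278 and 7922 of 17725 passed in control and 5695 and 5466 of 17258 in light libraries. Dag1 went from 158 to 361 in control 2-cell libraries to 9.17 to 64.5 in control 4-cell libraries, with no overlap, a log2 change of -3.06 (SE 0.45, adjusted p = 1.18e-05, limma). In light libraries it went from 92.5 to 342 to 14.0 to 74.5, also with no overlap, a log2 change of -1.86 (SE 0.39, adjusted p = 0.000405, limma). The difference between these 2 changes, 1.20 (SE 0.61), did not pass the test (adjusted p = 0.283, limma). The 2-cell and 4-cell libraries did not overlap for 3621 of all 17725 genes tested in control and 2236 of 17258 in light.

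Lamb1 fell by 1.70 (SE 0.44, adjusted p = 0.00348, limma) in control and by 2.07 (SE 0.49, adjusted p = 0.00128, limma) in light libraries on the log2 scale. Nid2 fell by 2.80 (SE 0.87, adjusted p = 0.0122, limma) and 3.09 (SE 0.83, adjusted p = 0.00401, limma). The call of Nid2 in control was lost with edgeR and DESeq2 (adjusted p up to 0.236), and that in light with DESeq2. The fall of Lamc1 in control libraries, -2.27 (SE 0.93), was at the threshold (adjusted p = 0.049, limma), and the call was lost without any 1 of 9 of the 13 libraries and under 6 of 9 other alternatives. In light libraries Lamc1 was at -2.29 (SE 0.72, adjusted p = 0.0128, limma), a call lost with quantile normalisation, edgeR and DESeq2. The remaining calls were Lama1 in control, at -1.44 (SE 0.50, adjusted p = 0.0218, limma), and Lama5 in light libraries, at -1.65 (SE 0.53, adjusted p = 0.0146, limma). The call of Lama1 was lost with quantile normalisation and DESeq2 (adjusted p up to 0.336), and that of Lama5 with median ratio scaling, quantile normalisation, 1 fit over all libraries and edgeR (adjusted p up to 0.229). Lama1, at 0 to 5.22 in control 2-cell libraries, had 1 read in 1 of 6 control 4-cell libraries and none in the others. Nid1 rose, by 2.99 (SE 0.99, adjusted p = 0.0176, limma) in control and 3.11 (SE 0.68, adjusted p = 0.000554, limma) in light libraries. In control, 4-cell libraries 1 and 2 stayed at 0 and 1.31 while the other 4 lay between 41.0 and 131, and without control 4-cell library 4 the call was lost (adjusted p = 0.053, limma). Without control 4-cell library 3 the log2 change of Nid1 was 2.65 (adjusted p = 0.0472, limma) and 5 of 9 members passed. The median gene fell by 0.72 on the log2 scale in control and by 0.56 in light libraries over this step.

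From the 4-cell to the 8-cell stage, Lama5 alone passed among 8 members tested in control libraries (6.31% of all genes passed), and none of 10 passed in light libraries (10.6% of all genes). Of those 10, 0 had an unadjusted p under 0.05 with limma, 1 was called by edgeR (Lama5) and 2 by DESeq2 (Lama5 and Lamb1). These tools called 247 and 535 of all 15178 genes. Lama5 in control had a log2 change of -3.58 (SE 0.89, adjusted p = 0.018, limma). This call was lost under the 3 other scalings and with edgeR and DESeq2 (adjusted p up to 0.302), and also without control 4-cell library 4 (adjusted p = 0.0563, limma) or control 8-cell library 4 (adjusted p = 0.0659, limma), and it was kept without control 4-cell library 3 (log2 change of -3.74, adjusted p = 0.0215, limma). In light libraries the change of Lama5 was 0.98 (SE 0.64, adjusted p = 0.329, limma), and without light 8-cell library 11, which had no Lama5 read, it was 1.60 (adjusted p = 0.0299, limma). Nid1 in control was at -2.85 (SE 1.29, adjusted p = 0.192, limma), and at -3.68 (adjusted p = 0.0477, limma) without control 4-cell library 1.

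From the 8-cell stage to the morula, the laminin chain Lama5 rose in the 2 conditions. Lamc1 had higher means in the 2 conditions, with calls that depended on the tool in light and on single libraries in control. In control libraries 4 of 8 members tested passed, all higher, where 14.3% of all genes did, and in light libraries 2 of 9 passed, where 11.8% of all genes did. Lama5 had 0, 1.85, 5.32 and 26.7 in control 8-cell libraries and lay between 0 and 637, with a median of 231, in control morulae. Its log2 change was 4.77 (SE 1.08, adjusted p = 0.00298, limma) in control and 3.54 (SE 0.71, adjusted p = 0.00125, limma) in light libraries. Lamc1 changed by 3.32 (SE 0.93, adjusted p = 0.015, limma) in control and 2.92 (SE 0.75, adjusted p = 0.00941, limma) in light libraries. The light call was lost with edgeR and DESeq2 (adjusted p up to 0.0756), and the call in control was lost without control 8-cell library 3 (adjusted p = 0.0706, limma) or 4 (adjusted p = 0.0727, limma). In control morulae Nid1 was higher by 4.90 (SE 0.75, adjusted p = 5.29e-05, limma) and Col4a1 by 4.13 (SE 1.12, adjusted p = 0.0121, limma). Col4a1 had 1 read in 1 of 4 control 8-cell libraries, against a median of 39.6 in control morulae, of which 2 had no read.

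The laminin trimer needs its chains in matching amounts, so their levels were compared per kilobase of exon in each library. The summed alpha chain level (Lama1 and Lama5) was under the Lamb1 level in all 7 control and 6 light 2-cell libraries. The median ratio of alpha to beta chain was 0.164 in control and 0.385 in light 2-cell libraries. It was 0.882 and 0.509 in 4-cell libraries and 0.061 and 0.763 in 8-cell libraries. In morulae the order was turned, with the alpha level above the beta level in 12 of 13 control and 6 of 6 light libraries and median ratios of 2.88 (0 to 7.40) and 8.37 (4.93 to 16.9). In blastocysts the ratio was 1.86 to 4.48 in 3 control libraries and 6.37 to 27.5 in 6 light libraries, without overlap. The ratio of gamma to beta chain was 0.540 to 1.81 in control and 2.62 to 10.8 in light blastocysts. These ratios use no size factor, since each is taken within a library, but the blastocyst values are of the contrast that chose the members and are a description.

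**Figure D2:**
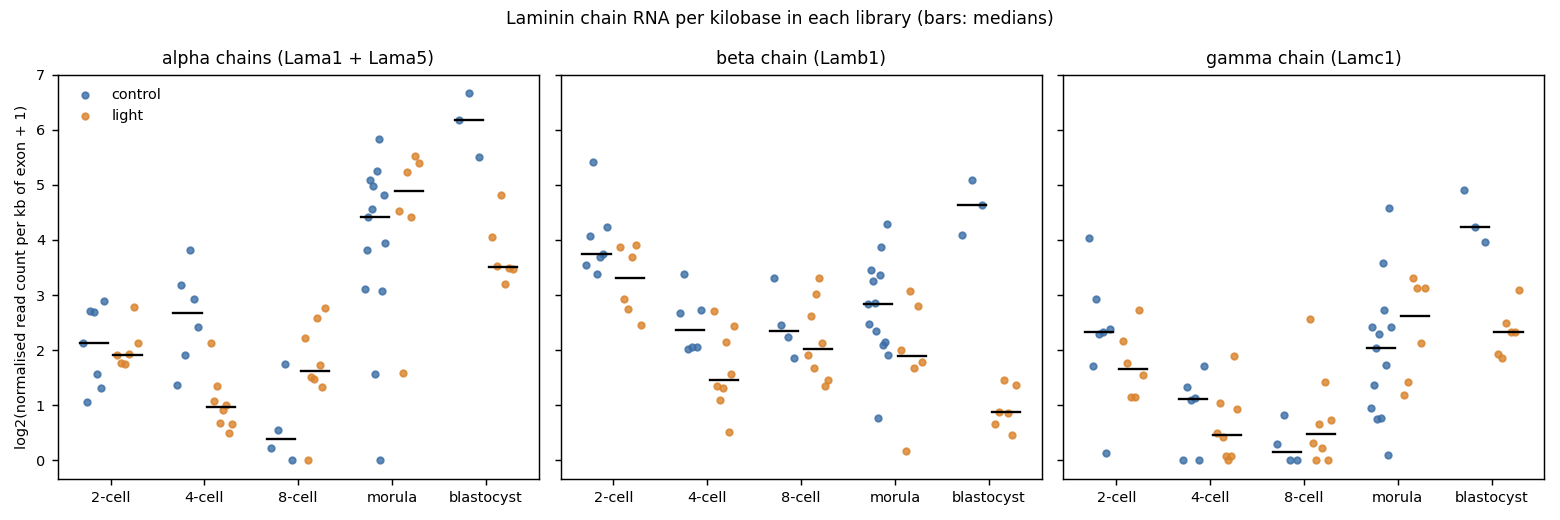
Laminin alpha (Lama1 and Lama5 summed), beta (Lamb1) and gamma (Lamc1) chain levels per kilobase of exon in each library, as log2(normalised read count per kilobase + 1), by stage; points are libraries, bars are medians, blue is control and orange is light. The alpha level rises above the beta level in morulae, and the beta level of the 6 light blastocysts lies under that of the 3 control blastocysts.

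At the 2-cell stage, none of the 10 members passed the test between light and control, where 10.5% of all genes did. The exposure itself took place at this stage. The summed oocyte RNA markers were 2658 to 5704 in control and 846 to 2304 in light 2-cell libraries, and their part in the results of this stage was not tested. Of the 10 members, 2 had an unadjusted p under 0.05 with limma, edgeR called 0 and DESeq2 called 1, Col4a2. These count tools called 2162 and 2741 of all 18532 genes. Col4a2 lay between 0.869 and 37.7, with a median of 2.76, in control libraries, and between 0 and 3.97 in light libraries, 4 of 6 of them without a read. The groups overlapped, and the log2 difference was -2.0 (SE 0.84, adjusted p = 0.123, limma). Lamb1 lay between 93.0 and 415 in control and between 44.2 and 139.9 in light libraries, with medians of 123 and 92.3. Its log2 difference of -0.81 (SE 0.39, adjusted p = 0.187, limma) went to -0.56 without control library 12, the highest. The median log2 difference was -0.43 over the members and 0.00 over all genes tested.

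At the 4-cell stage, Lama5 was lower in light libraries and the only member of 9 tested to pass, where 1.45% of all genes did. This background rests on 218 genes, and it was 5.20% (771 genes) without control library 3 and 65 genes without control library 5. Its values were 17.9, 31.2, 49.2, 75.8, 92.4 and 149 in control libraries, and in the light libraries the lowest was 3.04, the median 9.76 and the highest 20.2. Control library 1 lay inside the light range and the other 5 above it. The log2 difference was -2.53 (SE 0.58, adjusted p = 0.0291, limma), and without control library 3 it was -2.69 (adjusted p = 0.0104, limma). The call was lost without control library 2, 4 or 5 or light library 7 or 9, with adjusted p from 0.0527 to 0.0734 (limma) and log2 differences from -2.25 to -2.44. It was also lost with no filter on low values (adjusted p = 0.0509, limma), in a single fit over all libraries (adjusted p = 0.0728, limma) and with a replicate block (adjusted p = 0.464, limma). The light values rest on 2 to 23 reads per library. All 8 light libraries reached 10 CPM of Y-linked reads, and in the 4 control libraries that also reached it Lama5 lay between 31.2 and 149.

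The other 8 members tested at the 4-cell stage did not pass. Lamb1 lay between 30.4 and 93.7 in control and between 4.30 and 55.1 in light libraries, a log2 difference of -1.17 (SE 0.55, adjusted p = 0.263, limma). Nid1 was at 0 to 131 in control and 25.4 to 129 in light libraries. Lama1 had reads in 6 of 8 light libraries, up to 15.7 (14 reads) in light library 11, and that library also had the highest Sparc value of its group (5.62) and a fibroblast marker sum of 13.5, with 0 in control libraries, whose part was not tested. In control Lama1 had 1 read in library 3. Sparc was not tested because too few libraries had a value above 1, and it was 0 in all 6 control libraries. The median log2 difference was -0.47 over the members tested and 0.13 over all genes. For Lama5, the light effect at the 4-cell stage differed from that at the 2-cell stage by -2.51 (SE 0.78, adjusted p = 0.0656, limma), and by -2.67 (adjusted p = 0.0441, limma) without control 4-cell library 3. None of the 10 members passed this test of the difference, where 3.07% of all genes did. With limma 1 of the 10 had an unadjusted p under 0.05, edgeR called 0 and DESeq2 called 1 (Lama5). Over all 20395 genes, edgeR called 1094 and DESeq2 called 1628.

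At the 8-cell stage, Nid1 was higher in light libraries and the only member of 8 tested to pass, where 9.21% of all genes did. Control libraries were at 0, 0, 2.32 and 11.2, resting on 0, 0, 2 and 21 reads. Light libraries were at 23.6, 31.4, 33.8, 33.9, 35.1, 56.3, 150.2 and 213, resting on 34 to 312 reads. The groups did not overlap, as for 5.61% of all genes tested, and Nid1 was the only member of which this was so. The log2 difference was 4.40 (SE 0.71, adjusted p = 0.000399, limma). It stayed between 3.96 and 5.16 without each of the 12 libraries in turn, and the call was kept under every alternative run, with adjusted p from 1.96e-05 to 0.00928 over limma, edgeR and DESeq2. In the 5 light libraries under 10 CPM of Y-linked reads, where all 4 control libraries were, Nid1 lay between 23.6 and 150.2. The summed oocyte RNA markers were 142 to 266 in control and 57.2 to 143 in light 8-cell libraries, and their part in the result was not tested.

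The other 7 members tested at the 8-cell stage did not pass. Lama5 had a log2 difference of 2.03 (SE 0.95, adjusted p = 0.184, limma), and without light library 11, the light library with no Lama5 read, 2.65 (adjusted p = 0.0337, limma). Nid2 was at 3.48 to 57.4 in control libraries, while 5 of 8 light libraries had no read and the highest was at 26.9, a log2 difference of -2.003 (SE 1.01, adjusted p = 0.219, limma). Lamb1 lay between 25.9 and 87.9 in control and between 15.5 and 88.1 in light libraries, a log2 difference of -0.37 (SE 0.50, adjusted p = 0.695, limma). Col4a2 was not tested because too few libraries had a value above 1. It was above 0 in control library 1 only (14.8, 16 reads) among the control libraries and at most 0.963 in light libraries. The median log2 difference was 0.74 over the members tested and 0.16 over all genes.

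The light effect on Lama5 differed between the 4-cell and 8-cell stages by 4.57 on the log2 scale (SE 1.11, adjusted p = 0.0128, limma), the only call among 10 members, where 3.8% of all genes passed. It was kept without each library in turn (3.82 to 5.42) and lost with a pseudocount of 0.1 (adjusted p = 0.0589, limma). With edgeR and DESeq2 2 members were called, Lama5 and Nid1, and Nid1 was also called without control 4-cell library 1, at 3.84 (adjusted p = 0.0245, limma). Over all 16987 genes, edgeR called 922 and DESeq2 called 1123. Between the 8-cell stage and the morula, the light effect on Nid1 differed by -4.96 (SE 1.03, adjusted p = 0.00303, limma), again the only call among 10 members, where 2.62% of all genes passed. This call was kept under every alternative run and without each library in turn (-5.72 to -4.44). In control libraries Nid1 went from 3.38 ± 5.32 (SD, n = 4) to 102 ± 71.2 (SD, n = 13), and in light libraries it was 72.1 ± 70.2 (SD, n = 8) and 86.3 ± 93.7 (SD, n = 6). The 3 differences between light effects share libraries with each other and with the comparisons at single stages.

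In morulae, none of 9 members tested passed between light and control, where 1.18% of all genes did. With limma 3 of the 9 had an unadjusted p under 0.05, and edgeR and DESeq2 called 0. These count tools called 205 and 395 of all 15217 genes. The 2 collagen IV genes were at lower values in light libraries. Col4a1 had a lowest value of 0, a median of 39.6 and a highest value of 165 in 13 control morulae, and it was 0, 0, 0, 4.56, 11.3 and 36.3 in the light morulae. The groups overlapped, and the log2 difference was -2.52 (SE 1.00, adjusted p = 0.204, limma). Col4a2 had 0, 14.7 and 48.6 as its lowest, median and highest control values and 0 to 11.3 in light libraries, of which 3 had no read, a log2 difference of -2.42 (SE 0.85, adjusted p = 0.148, limma).

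Sparc went the other way, with 3 reads in 1 of 13 control morulae (1.97) and up to 6.11 in light morulae, a log2 difference of 1.17 (SE 0.41, adjusted p = 0.15, limma) at 0 to 7 reads per library. Lama1 had no read in any of the 13 control morulae, which allows a value of up to 1.57 to 3.16 depending on the library (3 reads), and it was not tested. Lama5 was at 230.2 to 511 in 5 light morulae and at 21.5 in library 1. Light morula 1 was also the lowest of its group for Lamb1, at 1.26 (1 read) against 21.9 to 74.0. Control morula 26 had no Lama5 read but 39.6 for Col4a1 and 41.8 for Col4a2. The median log2 difference was -0.41 over the members tested and 0.10 over all genes.

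**Figure D3:**
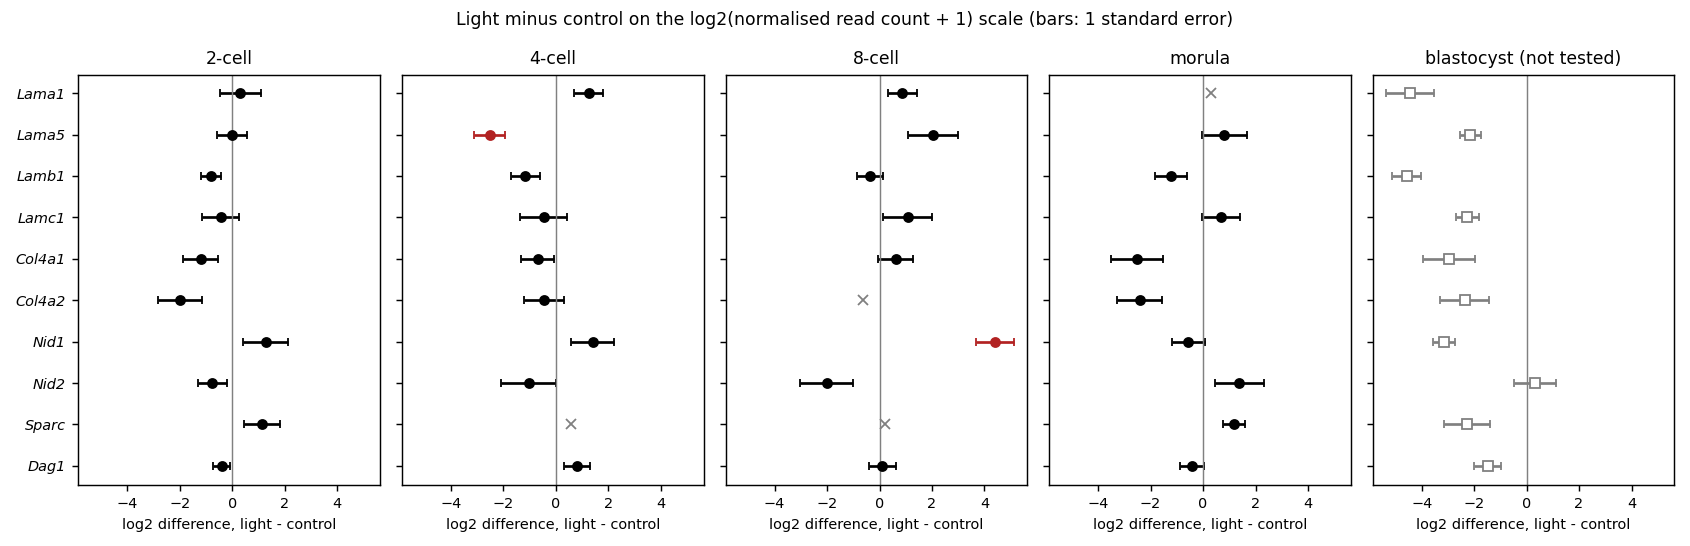
Light minus control difference of each member on the log2(normalised read count + 1) scale at each stage, with bars of 1 standard error; red circles passed the test, black circles did not, crosses were not tested and the grey squares of blastocysts are a description. Lama5 at the 4-cell stage (-2.53) and Nid1 at the 8-cell stage (4.40) are the members that passed.

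In blastocysts, the contrast that chose the set, 9 of 10 members had lower means of the log2 values in light than in control libraries. The largest log2 differences were -4.58 for Lamb1 and -4.45 for Lama1. They were -3.15 for Nid1, -2.95 for Col4a1, -2.36 for Col4a2, -2.28 for Sparc, -2.26 for Lamc1, -2.15 for Lama5 and -1.48 for Dag1, and Nid2 was at 0.31. By the rule used at the other stages 5 members were past the thresholds, all lower (Lama1, Lama5, Lamb1, Lamc1 and Nid1), where 5.34% of all genes were past them. Of those 680 genes 635 were lower in light as deposited, and with quantile normalisation 104 of 235 were. The groups did not overlap for the same 5 members, as for 12.5% of all genes tested in either direction and 11.9% with light lower. Nothing is read from these counts, since this contrast chose members. By the ratio of the lowest control to the highest light value, the members just inside that limit of no overlap were Lama5 (449 against 294) and Lama1 (19.3 against 12.5), and the member just outside it was Dag1 (106 against 182).

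Lamb1, the beta chain, was at 159, 328 and 237 in control libraries 1, 2 and 3, and at 3.68 to 17.5 in the 6 light libraries, with a median of 8.26. Lama5 was at 449, 1064 and 482 in the control libraries and at 86.9 to 294 in the light libraries, with a median of 115. Lama1 was at 312, 71.0 and 19.3 in control libraries and at 0.368 to 12.5 in light libraries. All 3 chains had every control library above every light library, and Lama1 differed most among the control libraries. The gamma chain Lamc1 was at 240.4, 148 and 120.1 in control and at 21.5 to 62.1 in light libraries. Nid1 was at 288, 218 and 433 in control and at 21.3 to 52.2 in light libraries.

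The other members overlapped between the groups. Col4a1 was at 54.7, 46.3 and 4.49 in control and at 0 to 21.8 in light libraries, 2 of which had no read. Col4a2 was at 42.1, 13.2 and 5.14 in control and at 0 to 17.3 in light libraries. Sparc was at 87.3, 27.5 and 40.5 in control and at 1.05 to 62.0 in light libraries, light library 23 being the highest. Control library 3 had the lowest Col4a1 and Col4a2 values of the control group, and light libraries 29 and 15 had the highest of theirs. Dag1 was at 106, 202 and 314 in control and at 23.1 to 182 in light libraries, again with light library 23 the highest. Nid2 was low in the 2 groups, at 0, 6.96 and 7.71 in control and at 2.10 to 8.56 in light libraries.

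The blastocyst libraries differed in lineage markers as well. The summed trophectoderm markers (14 of 14 in the table) were 658, 3686 and 7576 in control libraries 1, 2 and 3 and 3106 to 7713 in light libraries. The summed inner cell mass markers (11 of 11) were 2391, 2042 and 350 in control and 197 to 370 in light libraries, with Nanog at 249.9, 302 and 65.5 in control and at 0.368 to 20.3 in light. The summed primitive endoderm markers (11 of 11) were 871, 1811 and 1097 in control and 769 to 2304 in light libraries. On the endoderm list, Gata4 was at 70.5, 0.348 and 5.78 in control and at 0 to 3.10 in light libraries. Sox17 was at 25.8 in control library 1, at 0 in control libraries 2 and 3 and at 0 to 4.66 in light libraries. Gata6 was at 260, 210 and 36.6 in control and at 64.4 to 124 in light libraries. Pdgfra was at 124, 55.3 and 0 in control and at 0 to 2.10 in light libraries. Cubn was at 179, 173 and 15.4 in control and at 0.526 to 6.99 in light libraries. Foxa2 was at 0 in all 9 libraries, and Hnf4a, Sox7 and Amn were at most 9.99. Control library 1 held the highest Lama1, Lamc1, Col4a1, Col4a2 and Sparc values together with the highest Gata4, Sox17 and Pdgfra values. The same library had the lowest values of all 9 for Dab2 and Lrp2, also on the endoderm list, at 13.7 and 188, and the lowest Lama5, Lamb1 and Dag1 values of the control group. In control library 3, whose inner cell mass sum lay inside the light range, Lamb1 was at 237 and Nid1 at 433, above every light library. That library was also above every light library for Nanog, Pou5f1 (198 against at most 192) and Spp1 (11.6 against at most 0.776). It was under all of them for Zfp42 (47.5 against at least 50.4) and inside their range for the rest of the inner cell mass list. Each library is a picked cell. With 3 control libraries, the lineage of the cells that were picked and a difference within a lineage cannot be told apart. Y-linked reads were at 0.466 to 1.07 CPM in the 3 control blastocysts and at 42.0 to 168 CPM in the 6 light blastocysts. Sex or embryo of origin therefore cannot be told apart from light in this contrast.

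The scaling also bears on the size of the blastocyst differences. As deposited, the median gene was at -0.64 in light blastocysts, and the median of the members was -2.32. With scaling to the median ratio, quantile normalisation or scaling to all genes other than CT010467.1 and Gm42418, the median of all genes was -0.09, 0.02 and -0.01. Lamb1 was then at -3.93, -3.92 and -3.84, Lama5 at -1.49, -1.61 and -1.38, and Nid1 at -2.48, -2.53 and -2.38, in each case without overlap of the groups. Lamc1 was at -1.60, -1.63 and -1.50 and its groups then overlapped. Without each library in turn, the differences as deposited lay between -4.85 and -4.33 for Lamb1, -2.37 and -1.75 for Lama5, -5.41 and -3.43 for Lama1, and -0.71 and 0.85 for Nid2, which was negative without control library 1.

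**Figure D4:**
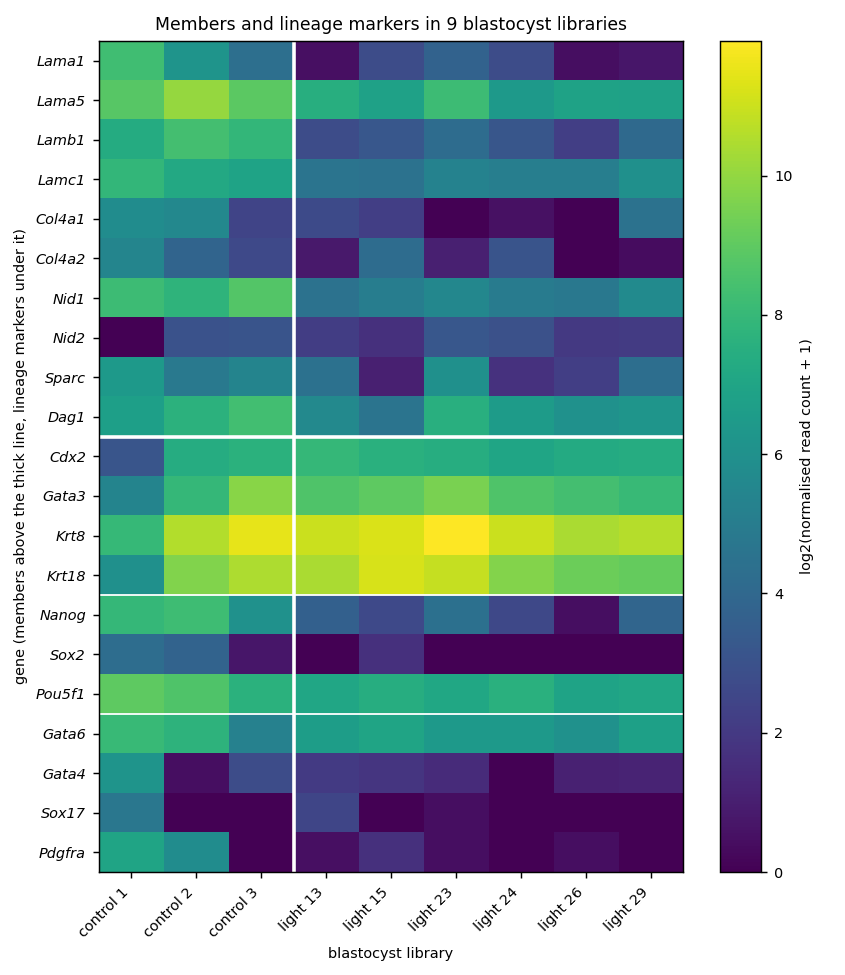
Members (upper rows) and a part of the lineage markers (lower rows, divided by thin lines) in 3 control and 6 light blastocyst libraries, coloured by log2(normalised read count + 1). The markers drawn are Cdx2, Gata3, Krt8 and Krt18 (trophectoderm), Nanog, Sox2 and Pou5f1 (inner cell mass), and Gata6, Gata4, Sox17 and Pdgfra (primitive endoderm). The other listed markers are not drawn, among them Zfp42 and also Dab2 and Lrp2, which were lowest in control library 1. Lamb1 and Nid1 are high in all 3 control libraries and low in all 6 light libraries, and control library 1 has the lowest trophectoderm and the highest Gata4 and Sox17 values.

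The step from morula to blastocyst uses the same blastocyst libraries and is given without a test. In control libraries the log2 change was 6.27 for Lama1 and 5.44 for Sparc, without overlap of the stages for either, 2.94 for Lamc1, 2.25 for Lama5, 2.08 for Lamb1 and 2.01 for Nid1. In light libraries it was 1.53 for Lama1, 1.99 for Sparc, 0.00 for Lamc1, -0.71 for Lama5, -1.29 for Lamb1 and -0.58 for Nid1. Sparc was at 27.5 to 87.3 in control blastocysts against 0 to 1.97 in control morulae, and at 1.05 to 62.0 against 0 to 6.11 in light libraries, where 3 of 6 blastocysts lay inside the morula range. Over all genes, control morulae and blastocysts did not overlap for 1180 of 14972.

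The genes around the members were taken from 6 lists of 111 genes (other laminin and collagen IV chains, other basement membrane proteins, laminin and collagen receptors, collagen folding and crosslinking enzymes, dystroglycan sugar chain enzymes, and matrix proteases with their inhibitors), of which 107 are in the table. At the 2-cell stage 9 of 79 tested passed, 5 higher and 4 lower in light, a share of 11.4% against 10.5% of all genes. They include Ctsl, a lysosomal cathepsin, with a light mean of 1218 ± 235 (SD, n = 6), a control mean of 375 ± 218 (SD, n = 7) and a log2 difference of 1.94 (SE 0.33, adjusted p = 0.000299, limma). Itga6, an alpha chain of laminin-binding integrins, had a light mean of 221 ± 75.2 (SD, n = 6), a control mean of 626 ± 215 (SD, n = 7) and a log2 difference of -1.51 (SE 0.29, adjusted p = 0.000852, limma). Ntn1, a laminin-related guidance protein, had a log2 difference of -2.63 (SE 0.57, adjusted p = 0.00238, limma) and Utrn, which links dystroglycan to actin, -2.69 (SE 0.60, adjusted p = 0.00326, limma). Light and control libraries did not overlap for any of these 4 genes, nor for the summed oocyte RNA markers, whose part was not tested.

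At the 4-cell stage none of 74 list genes passed, where 1.45% of all genes did. Of these, 16 had an unadjusted p under 0.05 with limma, edgeR called 0 and DESeq2 called 1. Over all 15010 genes, edgeR called 190 and DESeq2 called 742. At the 8-cell stage 11 of 66 passed, 7 higher and 4 lower in light, a share of 16.7% against 9.21% of all genes, while edgeR called 5 and DESeq2 called 8. Over all 13861 genes, edgeR called 889 and DESeq2 called 1417. Colgalt2 and Colgalt1, which add galactose to collagen, went opposite ways, with log2 differences of -5.52 (SE 0.81, adjusted p = 0.000152, limma) and 3.68 (SE 0.77, adjusted p = 0.00349, limma). The collagen receptor Ddr2 was at -3.64 (SE 0.85, adjusted p = 0.00826, limma) and the heparan sulphate proteoglycan Sdc4 at 3.94 (SE 0.93, adjusted p = 0.00843, limma). Among the receptors 6 of 18 tested passed, 5 of them higher in light, while edgeR called 2 and DESeq2 called 3. In morulae 1 of 72 passed, a share of 1.39% against 1.18% of all genes, and edgeR and DESeq2 called 0. It was the integrin chain Itga7, at 2.74 (SE 0.68, adjusted p = 0.0362, limma).

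In blastocysts 6 of 66 list genes were past the thresholds, all lower in light, where 5.34% of all genes were, and 8 of 66 had groups without overlap, 12.5% of all genes doing so. Over all genes, 635 of the 680 past the thresholds were lower in light as deposited, and 104 of 235 with quantile normalisation. Among the receptors of laminin and collagen, the dystroglycan partner Dmd was at 21.4 ± 4.08 (SD, n = 3) in control and 2.66 ± 2.07 (SD, n = 6) in light libraries. Ddr2 was at 68.8 ± 39.5 (SD, n = 3) and 10.7 ± 4.91 (SD, n = 6). The integrin chains Itgav and Itgb1 were at 27.3 ± 13.5 (SD, n = 3) and 46.4 ± 16.5 (SD, n = 3) in control and at 5.25 ± 4.16 (SD, n = 6) and 12.9 ± 12.3 (SD, n = 6) in light libraries. The median log2 difference over the 66 list genes was -1.22, against -0.64 over all genes.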

How the data were processed

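RNA-seq libraries of single cells, 67 in all, were analysed. According to the submitters' processing notes the authors used HISAT2, HTSeq 0.9.1 and mm9. The deposited values are a signal, reads scaled by 1 size factor per library, although the study's methods describe RPKM. Multiplied back, no library had less than 99.97% of its values as whole reads within 0.01, and all values of the members were. Total reads per library lay between 836011 and 8551674 (median 4632053).

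Groups came from the sample labels, and each library was 1 replicate. The members and the gene lists were chosen with earlier results of these data known. A gene was tested if 3 or more of the compared libraries had a value above 1, with limma 3.58.1 (R 4.3.3) on log2(value + 1), with an intensity trend, 2-sided, and Benjamini-Hochberg adjustment over all genes tested. A call needed an adjusted p under 0.05 and a 2-fold change or more. A fold change on this scale understates the change of low genes. Light was compared with control at each stage before the blastocyst, each stage with the one before in each condition, and the light effects of neighbouring stages by an interaction term. The design had foreseen a count test for raw counts only, so limma remained the test, and the recovered reads were tested by edgeR 4.0.16 (TMM, quasi-likelihood test) and by DESeq2 1.42.0 as alternatives. The other alternatives were a pseudocount of 0.1, no filter, a mean value above 5, median ratio, quantile and other-gene scaling, 1 fit over all libraries, a replicate block and each library left out. The test was tried on simulated data. A library was taken to stand apart by Dixon's test at the 95% level.

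All members were named. Of the 6 lists, up to 4 called genes with the smallest adjusted p were named per stage, and in blastocysts up to 4 with the largest difference among those without overlap and with a mean of at least 10. Gene models are GENCODE M21 (GRCm38), matched by symbol for 26329 of 26414 rows, and levels per kilobase use the union of exons. The build differs from mm9, so no coordinate comes from the deposited file. Promoters of Lama1, Lamc1 and Nid2 were not used here.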

Additional observations from a re-analysis of the deposited data

Results flagged for a closer look

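In 10 of 78 sets of a member and a group with 4 to 10 libraries, a single library stood apart from the others. The rate of about 1 in 20 of Dixon's test holds for normally distributed values. These values include many zeros, so the 10 of 78 cannot be set against that rate. Of these, 6 rest on low values. Lama1 in control 4-cell library 3 was at 0.380 (1 read) and Col4a1 in control 8-cell library 3 at 1.16 (1 read), with no read in the other libraries of the group. Col4a1 was at 3.72 (9 reads) in light 2-cell library 12 and at 7.31 (17 reads) in light 4-cell library 6, where the others were at most 0 and 0.734. Col4a2 in control 8-cell library 1 was at 14.8 (16 reads), the others being at 0, and Sparc in light 8-cell library 9 was at 4.66 (11 reads), the others being at most 0.532.

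The other 4 concern laminin chains. Lamb1 in control 2-cell library 12 was at 415, against 93.0 to 176 in the other libraries. Lama5 was at 0 in light 8-cell library 11, against 13.5 to 65.7. Light morula 1 was apart for Lama5, at 21.5 against 230.2 to 511, and for Lamb1, at 1.26 (1 read) against 21.9 to 74.0.

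The light effect differed between neighbouring stages for 2 members, by the interaction term of limma. For Lama5 the difference between the 8-cell and 4-cell stages was 4.57 on the log2 scale, with light lower at the 4-cell stage (-2.53) and at 2.03 at the 8-cell stage. For Nid1 the difference between the morula and the 8-cell stage was -4.96, with light higher at the 8-cell stage (4.40) and at -0.56 in morulae.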

How the results depend on the processing

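The counts of members called that moved by over 1.5 times are given here, and the cause was not tested unless the setting itself shows it. Light against control at the 2-cell stage gave 1 with DESeq2. At the 4-cell stage it gave 0 with no filter, with 1 fit over all libraries and with the replicate block. From the 2-cell to the 4-cell stage in light libraries the replicate block gave 0, so that Nid2, Lamc1 and Lama5 were among the calls lost. With edgeR and with DESeq2 this step gave 4 in each condition, against 6. From the 4-cell to the 8-cell stage, control libraries gave 0 with median ratio, quantile and other-gene scaling, with the replicate block, edgeR and DESeq2, and 2 with 1 fit over all libraries, and light libraries gave 1 with edgeR and 2 with DESeq2. From the 8-cell stage to the morula, control libraries gave 0 with the replicate block, and light libraries gave 1 with edgeR and with DESeq2. Over all 14414 genes, the count tools called 1463 and 1845 in light libraries for this step. The difference of light effects from 2-cell to 4-cell libraries gave 1 with a mean value above 5, with other-gene scaling and with DESeq2, and that from 4-cell to 8-cell libraries gave 0 with a pseudocount of 0.1 and 2 with edgeR and with DESeq2.

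With each library left out, the counts of members called lay between 0 and 1 for light against control in 4-cell libraries, 1 and 2 in 8-cell libraries, 0 and 2 from the 4-cell to the 8-cell stage in control and 0 and 1 in light, 0 and 1 for the light effect in 4-cell against 2-cell libraries and 1 and 2 in 8-cell against 4-cell libraries. Between 3 and 5 members passed from the 8-cell stage to the control morula. Members without overlap in blastocysts were 5 to 7, and 4 members, against 5, were past the thresholds there under each of the 3 other scalings. Over all results, 222 of the 235 counts made with a library left out were within 1.5 times the reported count. No called member turned its direction under any alternative. Of 119 tests of a member in a comparison, 23 were called, and 36 that were not called turned sign under some alternative.

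The replicate numbers of the labels do not pair the samples, since all correlations of same-numbered libraries lay between -0.0873 and 0.0695, and nothing in the labels ties a number to a litter or day. With the replicate block, 0 of 15010 genes passed at the 4-cell stage and the 2 calls from the 8-cell stage to the light morula were kept. The number of light against control calls over all genes was 190 with edgeR and 742 with DESeq2 at the 4-cell stage, against 218 with limma, and 395 with DESeq2 against 179 in morulae. The scalings moved the share of higher calls at the 8-cell stage from 819 of 1276 to between 649 of 1280 and 719 of 1288. In morulae it went from 54 of 179 to 146 of 269 with other-gene scaling, and in blastocysts from 45 of 680 to 131 of 235 with quantile normalisation. Depth limits the collagen IV genes before the morula, and Sparc and Lama1 before the blastocyst, which had few reads or none in most libraries. Groups of 3 and 4 control libraries limit the blastocyst and 8-cell values.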

Other observations

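The genes whose mean log2 level over the 10 groups of stage and condition was most like that of a member were looked up among 11120 genes with a mean of at least 10 in some group. For Lamb1 they were Pigs (Pearson's r 0.937), Cpe (0.891) and Mfap3 (0.882). For Lama5 they were Ap3b1 (0.965), Psrc1 (0.963) and Dynlt1a (0.962), and for Sparc Cldn3 (0.977), Gbgt1 (0.973) and Capn6 (0.971). The gene ranked 100 on the same measure had an r of 0.767 for Lamb1, 0.859 for Lama5 and 0.891 for Sparc. These correlations are a description over 10 means, include the blastocyst groups that chose the members, and carry no p-value. Cpe, a carboxypeptidase of secretory granules, was at 14.3 in control and 0.0647 in light blastocysts on average, and at most 4.44 in the other groups. Capn6 was at 76.6 in control and 13.7 in light blastocysts and at most 3.92 elsewhere. Cldn3, a tight junction claudin, was at 21.6 in control and 3.60 in light blastocysts and at most 2.20 elsewhere.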
